A study of Mus musculus with 4 samples.

Results

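Cytokine signalling through JAK2 and the STAT proteins was described by the RNA of 8 genes in hematopoietic stem cells sorted from mouse bone marrow. The genes are the receptor genes Csf3r, Csf2ra and Csf2rb, the kinase gene Jak2, the transcription factor genes Stat3, Stat5a and Stat5b, and the feedback gene Socs2. They were chosen by name among the 12390 genes of the deposited table, with earlier results of these data known. All 8 also passed the filter on low values, a mean of at least 1 RPKM over the libraries (RPKM is the read count divided by transcript length and by the library total), which left 11742 genes to test.

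Knockout libraries (n = 2, Ddx21_CKO in the labels) came from mice with floxed Ddx21 alleles and the CAG-CreERT2 transgene, and control libraries (n = 2, Ddx21_fl, labelled WT) from mice with the floxed alleles alone. The CAG promoter is active in most cell types, so Cre is not limited to blood cells, and CreERT2 works only once tamoxifen is present. The sources used here do not give the dosing, the time after it, age or sex. Each library was made from about 5000 cells (Lin-, Sca-1+, c-Kit+, CD48-, CD150+) with a Smart-seq kit, which copies polyadenylated RNA and does not keep the strand. Whether each library had its own animal is not stated in the labels, so p-values measure no more than how these samples differ among themselves, which may be technical.

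Blood cytokines such as G-CSF, GM-CSF and interleukin 3 bind receptors that have no enzyme activity of their own and carry JAK kinases on their inner tails. The activated kinase phosphorylates the receptor and the STAT proteins, which pair, enter the nucleus and switch on target genes. Among those targets are the SOCS and CISH proteins, which dampen the receptors, so that their RNA is often read as a mark of recent STAT activity. In stem cells STAT5 is needed to keep the cells in reserve.

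The libraries held 43256641 and 43218009 recovered reads (knockout replicates 1 and 2) and 55719256 and 62871440 (control replicates 1 and 2). Ddx21 itself stood at 6.20 and 6.60 RPKM in knockout and at 11.0 and 12.1 RPKM in control libraries, a log2 fold change of -0.76 (SE 0.30, limma adjusted p = 0.158). Its RNA was lower in both knockout libraries and did not pass the threshold of 0.05 on this scale. On recovered reads, limma-voom gave -1.24 (SE 0.16, adjusted p = 0.0399), which passed it. Values of the whole table were shifted upward in knockout libraries: the median log2 difference from the control mean was 0.12 in knockout replicate 1 and 0.50 in replicate 2, and the log2 fold change over all tested genes had a median of 0.31. Changes of single genes are therefore given as deposited and, where it matters, after rescaling the libraries by a trimmed mean of log ratios (TMM-type), which put the median of all genes at -0.0028. On the rescaled values Ddx21 had a log2 fold change of -1.09 (SE 0.15, limma adjusted p = 0.102).

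Summed marker RNA also differed between the groups for some lists and overlapped for others. The 18 neutrophil and monocyte markers, all listed, summed to 17343 and 10894 RPKM in knockout libraries and to 27345 and 27139 RPKM in control libraries. Of 13 stem cell markers 12 were listed, and they summed to 302 and 418 RPKM in knockout and to 211 and 248 RPKM in control libraries. Stroma and endothelium markers, 8 of 12 listed, summed to 4866 and 1319 RPKM in knockout and to 354 and 214 RPKM in control libraries. Megakaryocyte markers, 6 of 7 listed, summed to 488 and 780 RPKM in knockout and to 377 and 341 RPKM in control libraries. Sums of the 7 myeloid progenitor markers were 33583 and 22290 RPKM in knockout and 45053 and 47321 RPKM in control libraries. Lymphoid markers, 5 of 12 listed, summed to 912 and 788 RPKM in knockout and to 1251 and 1343 RPKM in control libraries. Most of the lymphoid sum was Nkg7. The groups overlapped for the 10 erythroid markers, at 859 and 466 RPKM in knockout and 984 and 485 RPKM in control libraries. They also overlapped for mast cell and basophil markers, 6 of 8 listed. Those summed to 101 and 136 RPKM in knockout and to 133 and 71.0 RPKM in control libraries. The part of these marker differences in the results for the 8 genes was not tested.

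None of the 8 genes was called: 0 rose and 0 fell at a limma adjusted p under 0.05 over all tested genes, where 3.33% of all genes were called higher and 0.86% lower. Without adjustment, p was under 0.05 for 2 of the 8 in the higher direction (Socs2 and Stat5a) and for 0 in the other, where 13.8% of all genes reached it in the higher and 2.45% in the lower direction. After rescaling it was reached by 1 of the 8 higher (Socs2) and 1 lower (Csf3r), beside 7.81% and 7.75% of all genes. Voom on recovered reads called 0 of the 8 in either direction. The median log2 fold change of the 8 was 0.27, beside 0.31 for all genes, and 3 of the 8 lay above that median. The groups did not overlap for 6 of the 8, of which 5 were higher and 1, Csf3r, was lower in knockout libraries, where 55.5% of all genes did not overlap in the higher direction and 7.38% in the lower. After rescaling the groups did not overlap for Socs2, higher, and Csf3r, lower, with 26.7% and 27.9% of all genes in the same state. With 2 libraries against 2, an exact permutation test (two-sided) cannot give a p below 0.333, so single values carry no such test.

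**Figure D1:**
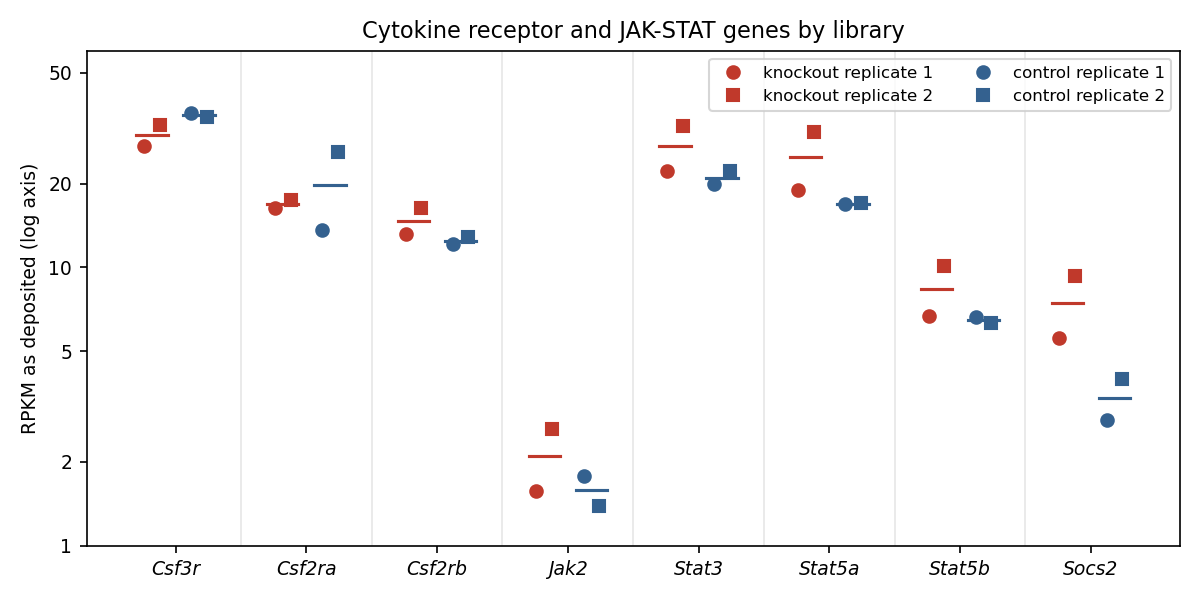
RPKM as deposited (log axis) of the 8 genes in each library, with knockout in red left of control in blue, circles for replicate 1, squares for replicate 2, and bars for group means. Socs2 stands at 5.58 and 9.33 RPKM in knockout and at 2.83 and 3.98 RPKM in control libraries, and Csf3r is the gene with both knockout libraries below both control libraries.

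Levels per length kept nearly the same order in every library. Csf3r was the most abundant of the 8 and Jak2 the least abundant in all 4 libraries, and Csf2rb, Stat5b and Socs2 held the fifth, sixth and seventh places throughout. Stat3, Stat5a and Csf2ra followed Csf3r, in that order in 3 libraries and with Csf2ra ahead in control replicate 2. In the knockout libraries the ranges of Csf3r and Stat3, of Stat3 and Stat5a, and of Stat5b and Socs2 overlapped. Within each of these libraries their order was the same. Knockout replicate 2 was shifted upward as a whole, so the overlap cannot decide whether these neighbours differ. In the control libraries the range of Csf2ra covered those of Stat3 and Stat5a.

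The receptor genes came out lowest among the 8 in fold change. Csf3r (ENSMUSG00000028859, chromosome 4, 126024550 to 126044440, plus strand, mm10) encodes the receptor of G-CSF, the cytokine that drives neutrophil production. It stood at 27.4 and 32.3 RPKM in knockout libraries and at 35.7 and 34.8 RPKM in control libraries. Both knockout values were below both control values, with means of 29.9 ± 3.52 RPKM in knockout and 35.3 ± 0.677 RPKM in control (SD, n = 2 each). The log2 fold change was -0.24 (SE 0.21, limma adjusted p = 0.491), and 6.54% of all tested genes had a lower one. After rescaling Csf3r stood at 28.0 and 24.3 RPKM in knockout and at 39.7 and 40.6 RPKM in control libraries, a log2 fold change of -0.60 (SE 0.13, limma adjusted p = 0.163), still short of the threshold.

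Csf3r is also a gene of neutrophils and their precursors, whose summed marker RNA was lower in both knockout libraries. On the deposited scale 11 of the 18 neutrophil and monocyte markers and 5 of the 7 myeloid progenitor markers were called lower. Of all genes 0.86% were called lower, and of either list 0 were called higher. Not every marker was lower: Cd68 stood at 12.3 and 20.5 RPKM in knockout and at 13.9 and 10.4 RPKM in control libraries. After rescaling 0 of either list were called, as for all genes, and the list medians were -1.11 and -1.10. Voom called 2 of the 18 and 0 of the 7 lower, beside 0.0852% of all genes. Without control replicate 1, control replicate 2 or knockout replicate 2 the calls among the 18 fell to 1, 3 and 3 in that order, and those among the 7 to 0 each time. After rescaling, knockout replicate 2, with the lowest sum of those markers, also had the lowest Csf3r, whereas as deposited the lowest Csf3r was in knockout replicate 1. The largest terms in the sum of the 18 were S100a8 and S100a9, while others, such as Ly6g and Cxcr2, were lowest in knockout replicate 1. In bulk samples fewer cells of a type and less RNA per cell cannot be told apart. Of the 3676 stretches of 50 bases in Csf3r transcripts, 10.7% also occur in transcripts of other genes. The sources used here do not say how reads with several matches were treated.

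Csf2ra (ENSMUSG00000059326, chromosome 19, 61223957 to 61228429, minus strand) encodes the chain that binds GM-CSF specifically. It stood at 16.3 and 17.5 RPKM in knockout libraries and at 13.6 and 26.0 RPKM in control libraries. The knockout pair lay inside the range of the control pair, and control replicate 2 was 1.91 times control replicate 1, the widest gap within a group among the 8 genes. The value rests on 1736 reads in control replicate 1 and 3736 reads in replicate 2, a counting error of 2.40% and 1.64%. The log2 fold change was -0.15 (SE 0.24, limma adjusted p = 0.676), and it was 0.29 without control replicate 2 and -0.59 without control replicate 1.

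Csf2rb (ENSMUSG00000071713, chromosome 15, 78325752 to 78353847, plus strand) encodes the common beta chain, which passes on the signals of GM-CSF, interleukin 3 and interleukin 5. Its level was 13.2 and 16.3 RPKM in knockout libraries and 12.1 and 12.9 RPKM in control libraries. Both knockout values were higher, by a log2 fold change of 0.21 (SE 0.26, limma adjusted p = 0.588), below the median of all genes. After rescaling the sign turned, to -0.14 (SE 0.12, limma adjusted p = 0.580), and the groups overlapped. Mice carry a close copy, Csf2rb2, which serves interleukin 3 alone. It stood at 2.32 and 2.90 RPKM in knockout and at 1.47 and 1.55 RPKM in control libraries (log2 fold change 0.52, SE 0.31, limma adjusted p = 0.366). Of the 7268 stretches of 50 bases in Csf2rb transcripts 12.3% occur in other genes, nearly all of them in Csf2rb2, so the split between this pair is uncertain.

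Jak2 (ENSMUSG00000024789, chromosome 19, 29251828 to 29313080, plus strand), the kinase shared by the receptors of erythropoietin, interleukin 3 and GM-CSF, was the least abundant of the 8. It stood at 1.58 and 2.63 RPKM in knockout libraries and at 1.78 and 1.39 RPKM in control libraries. Knockout replicate 1 lay between the control libraries and replicate 2 above them, so the groups overlapped. The log2 fold change was 0.25 (SE 0.30, limma adjusted p = 0.590) as deposited and -0.0024 (SE 0.15, limma adjusted p = 0.994) after rescaling. Between 345 and 578 reads per library stand behind these values, a counting error of 4.16% to 5.38%.

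The STAT genes lie together on chromosome 11. Stat3 (ENSMUSG00000004040, 100885098 to 100939540, minus strand), the main STAT of G-CSF and interleukin 6, stood at 22.2 and 32.3 RPKM in knockout libraries and at 19.9 and 22.1 RPKM in control libraries. Knockout replicate 1 and control replicate 2 were almost equal, and the groups were separated by knockout replicate 2. The log2 fold change was 0.34 (SE 0.23, limma adjusted p = 0.409), close to the median of all genes, and -0.03 (SE 0.13, limma adjusted p = 0.932) after rescaling.

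Stat5a (ENSMUSG00000004043, 100859351 to 100885169, plus strand) and Stat5b (ENSMUSG00000020919, 100780731 to 100850724, minus strand) encode the paired STAT5 proteins that act below interleukin 3 and GM-CSF. Stat5a stood at 19.0 and 30.7 RPKM in knockout libraries and at 16.9 and 17.0 RPKM in control libraries. Its log2 fold change was 0.49 (SE 0.24, limma adjusted p = 0.282), the highest among the kinase and STAT members, and 0.13 (SE 0.13, limma adjusted p = 0.623) after rescaling, where the groups overlapped. Stat5b stood at 6.67 and 10.1 RPKM in knockout libraries and at 6.65 and 6.32 RPKM in control libraries. Its log2 fold change was 0.30 (SE 0.31, limma adjusted p = 0.535), and it turned to -0.03 (SE 0.11, limma adjusted p = 0.904) after rescaling. Both genes were carried above the controls mainly by knockout replicate 2, the library with the largest shift of all genes.

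Stat5a was the more abundant of the pair in every library. The ratio of Stat5a to Stat5b within a library, which does not depend on the scaling, was 2.85 and 3.04 in knockout and 2.54 and 2.69 in control libraries, a small difference with no overlap. Of their 50-base stretches 8.52% of Stat5a and 11.0% of Stat5b occur in other transcripts, almost all in each other. Stat3 and Stat5a meet tail to tail and share 72 exon bases on opposite strands, and without strand the reads from those bases cannot be told apart.

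**Figure D2:**
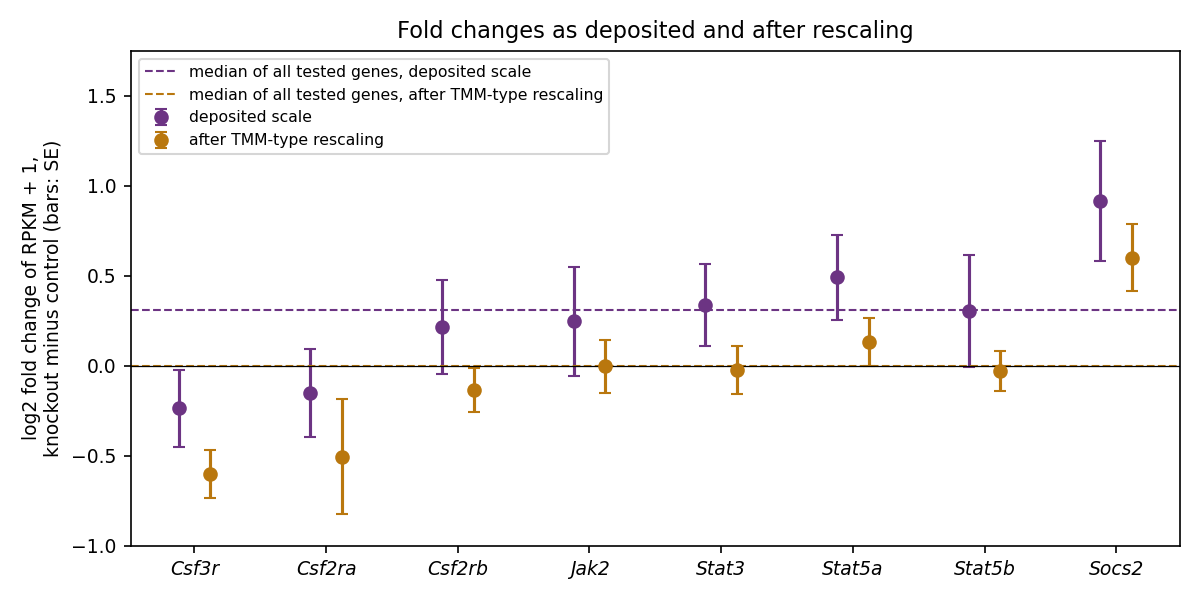
Log2 fold change of RPKM + 1, knockout minus control, with SE bars, as deposited (purple) and after TMM-type rescaling (brown), with dashed lines at the medians of all tested genes, 0.31 and -0.0028. Rescaling moves all 8 genes down by about the shift of the median: Csf2rb, Jak2, Stat3 and Stat5b then lie just below 0, Socs2 at 0.60 and Csf3r at -0.60.

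Socs2 (ENSMUSG00000020027, chromosome 10, 95385362 to 95417180, minus strand) encodes a feedback inhibitor that STAT5 induces and that restrains cytokine and growth hormone receptors. It stood at 5.58 and 9.33 RPKM in knockout libraries and at 2.83 and 3.98 RPKM in control libraries. Both knockout values were above both control values, and knockout replicate 2 was the highest. The means were 7.45 ± 2.65 RPKM in knockout and 3.40 ± 0.811 RPKM in control libraries (SD, n = 2 each), a ratio of 2.19. The log2 fold change was 0.92 (SE 0.33, limma adjusted p = 0.106), and 97.5% of all tested genes had a lower one. Of the 9556 stretches of 50 bases in Socs2 transcripts 4.58% occur in other genes, mostly in Gm9847.

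After rescaling Socs2 stood at 5.72 and 7.02 RPKM in knockout libraries and at 3.15 and 4.64 RPKM in control libraries. The log2 fold change was then 0.60 (SE 0.18, limma adjusted p = 0.239), and voom on recovered reads gave 0.73 (SE 0.20, adjusted p = 0.160). On each of these scales Socs2 was the highest of the 8 in fold change and short of the threshold. The sums of stem cell and megakaryocyte markers, given above as deposited, were likewise highest in knockout replicate 2 and next in knockout replicate 1. Not every marker had that order. Hoxb5 (0.49 RPKM) and Ctnnal1 (2.61 RPKM) were lowest in knockout replicate 1. Ppbp stood at 7.27 RPKM in knockout replicate 1 and at 7.20 RPKM in replicate 2. The median of all genes had the order of the sums, with shifts of 0.50 and 0.12. As deposited, 55.5% of all genes did not overlap in the higher direction. A link of Socs2 to these markers was not tested.

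Leaving out knockout replicate 1 was the setting in which members were called: Stat3, Stat5a, Stat5b and Socs2 were then higher, with limma adjusted p-values of 0.01998, 0.0138, 0.0257 and 0.0145. In that setting 54.3% of all genes were called higher and 4.48% lower, so a call there is shared with most of the table. Without control replicate 1, control replicate 2 or knockout replicate 2, 0 of the 8 were called in either direction.

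Ratios between genes of the same library compare them free of the shift. Socs2 over Jak2 was 3.54 and 3.54 in knockout and 1.59 and 2.86 in control libraries. Socs2 over Stat5a was 0.294 and 0.304 in knockout and 0.168 and 0.234 in control libraries, and Socs2 over Stat3 was 0.252 and 0.289 in knockout and 0.142 and 0.180 in control libraries. Socs2 was thus higher in both knockout libraries relative to the kinase and the STAT genes that act before it. Socs2 had the highest fold change of the 8, and these ratios restate that. Socs2 over Cish, a related feedback gene described below, was 0.81 and 0.71 in knockout and 1.26 and 0.82 in control libraries. Knockout replicate 1 (0.8135) and control replicate 2 (0.8185) were nearly equal. That gap is smaller than the counting errors there, 3.12% and 3.06% for Socs2 and 2.67% and 2.63% for Cish. The receptor ratio Csf3r over Csf2rb was 2.08 and 1.99 in knockout and 2.96 and 2.70 in control libraries, and Csf3r over Stat3 was 1.24 and 1.002 in knockout and 1.80 and 1.57 in control libraries. Csf3r was lower in both knockout libraries relative to either gene, which restates its fold change, the lowest of the 8. The share of all gene pairs with such separate ratios was not computed. Csf2ra over Csf2rb, 1.24 and 1.07 in knockout and 1.13 and 2.02 in control libraries, overlapped between the groups.

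**Figure D3:**
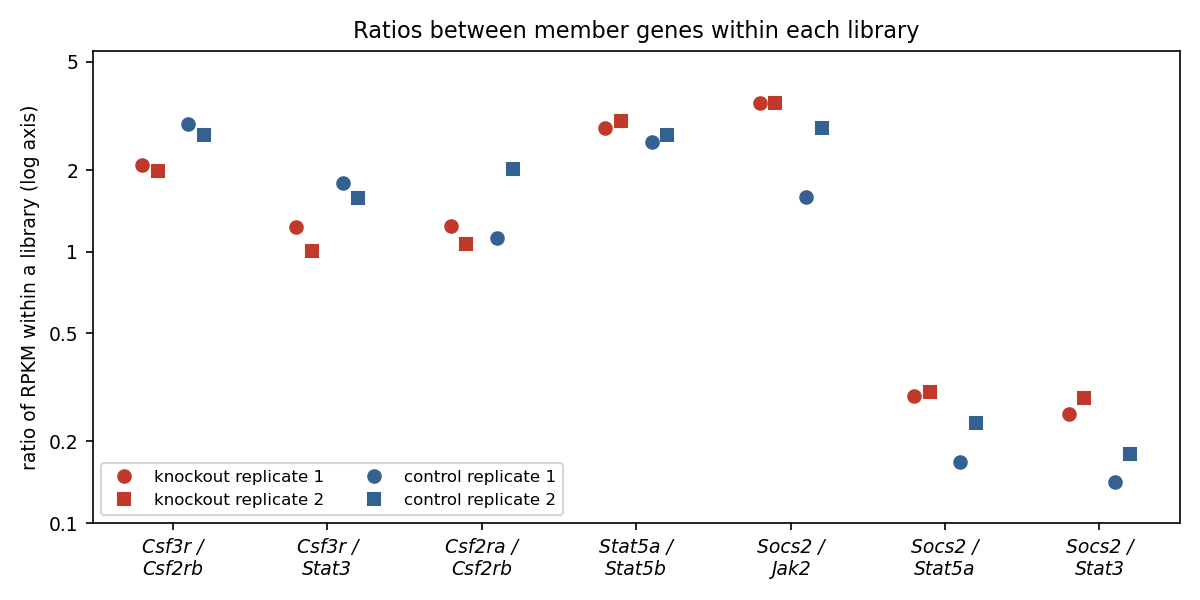
Ratio of the RPKM of 2 genes within each library (log axis), with knockout in red left of control in blue, circles for replicate 1 and squares for replicate 2. The 3 ratios with Socs2 on top are higher in both knockout libraries, the 2 with Csf3r on top are lower, and Csf2ra over Csf2rb overlaps.

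The genes with the most similar pattern were sought by the distance between the 4 log2(RPKM + 1) values, each gene centred on its own mean. Clone, predicted and pseudogene names were left out, also from the counts. For Socs2 these were Plek2 (distance 0.0117), Pglyrp2 (0.0560) and Homer3 (0.0640), and 35 genes lay within a distance of 0.2. Csf3r was nearest to Orm1 (0.0311), Adpgk (0.0352) and Gas7 (0.0443), with 138 genes within 0.2. Csf2ra, with its high control replicate 2, had 9 genes within 0.2, the nearest being Arhgdia (0.0461), Snord98 (0.141) and Impdh1 (0.145). Csf2rb (nearest Ezh2, Erc1 and Impa1), Jak2 (Trmt61b, Ino80 and Nr2c2), Stat3 (Nf2, Mum1 and Ddx52), Stat5a (Cwf19l2, Deptor and Nsrp1) and Stat5b (Ripk1, Pggt1b and Rif1) each had between 1551 and 2969 genes within 0.2. Their pattern was that of many genes of the table. Few genes lay near Socs2, Csf3r and Csf2ra. This restates their fold changes far from the median and, for Csf2ra, its gap within the control group. With 4 libraries such likeness is a description alone.

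Around these 8 genes, 74 other tested genes of the pathway were examined, of which 4 rose and 0 fell, 5.41% called higher beside 3.33% of all genes. Of 21 tested genes for other cytokine receptors 1 rose, 0 fell and 20 were not called, with a median log2 fold change of 0.38. Il2rg, the common gamma chain of the interleukin 2 family of receptors, stood at 23.7 and 28.0 RPKM in knockout and at 13.4 and 13.8 RPKM in control libraries, a rise of 0.88 (SE 0.24, limma adjusted p = 0.0112).

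Of 17 tested inhibitors of the pathway 1 rose, 0 fell and 16 were not called, with a median of 0.35, beside 3.33% of all genes called higher. The one that rose was Cish, a STAT5-induced relative of Socs2. It stood at 6.86 and 13.1 RPKM in knockout and at 2.24 and 4.86 RPKM in control libraries, a log2 fold change of 1.27 (SE 0.33, limma adjusted p = 0.00503). As with Socs2, knockout replicate 2 was the highest library and control replicate 1 the lowest. Socs1 (0.14, limma adjusted p = 0.715) and Socs3 (0.19, limma adjusted p = 0.671), named after their values were seen, were low genes with overlapping groups. The exons of Cish overlap those of Gm17040 and Gm17041 on the opposite strand, and reads from the shared bases cannot be told apart. Of the 6559 stretches of 50 bases in Cish transcripts 9.35% occur in other genes, mostly in Gm17041 and Gm17040.

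STAT dimers are known to bind TTCNNNGAA, a motif that reads the same on both strands. Windows from 250 bases before to 50 bases after the start site (RefSeq, GRCm38.p6) were found for 6 of the 8 genes, all but Csf2rb and Socs2, and 0 of the 6 held the motif. Over all genes with such a window 9.55% held it. The sites of the feedback genes Cish, called higher, and Socs3, not called, are shown with the motif in capitals, and were chosen for print because both windows hold a match.
Cish, chr9:107296654-107296683, plus strand: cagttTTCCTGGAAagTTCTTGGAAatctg
Socs3, chr11:117969501-117969530, minus strand: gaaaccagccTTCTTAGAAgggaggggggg
Cish held 2 matches side by side at its start site and Socs3 held 1 match, which begins at position -154 from its start site. Of the 12 tested inhibitors with a window these were the 2 with a match, and Socs1, a feedback gene that was not called, held none. Of the 13 tested STAT3 or STAT5 targets with a window 3 held a match, Cish, Socs3 and Icam1, and Pim2, which was called, held none. A match is a description of the letters and does not show binding.

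Among 19 tested genes known as STAT3 or STAT5 targets, a list that again holds Cish, 3 rose, 0 fell and 16 were not called, with a median of 0.32. Of all tested genes 3.33% were called higher and 0.86% lower. Pim2, a survival kinase, stood at 16.2 and 32.5 RPKM in knockout and at 7.17 and 14.0 RPKM in control libraries, a log2 fold change of 1.12 (SE 0.25, limma adjusted p = 7.97e-04). Icam1, an adhesion molecule that NF-kB also induces, stood at 9.32 and 13.95 RPKM in knockout and at 4.62 and 5.25 RPKM in control libraries, a rise of 1.07 (SE 0.31, limma adjusted p = 0.0190). The median of the list was thus at that of all genes while 3 of its members were far above it. Other known targets, named after their values were seen, had log2 fold changes of 0.62 (Bcl2l1, limma adjusted p = 0.160), 0.38 (Pim1, limma adjusted p = 0.484) and 0.09 (Myc, limma adjusted p = 0.729). Cebpb (-0.39, limma adjusted p = 0.429) and Cebpd (-0.30, limma adjusted p = 0.547) went the other way, with overlapping groups as deposited. After rescaling the groups of Cebpb did not overlap, a state shared in the lower direction by 27.9% of all genes. Of the 19 targets 10 lay above the median of all genes.

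In the remaining lists 0 genes were called. Of the 7 other JAK and STAT genes, median 0.39, the smallest p-values belonged to Stat4 (0.67, SE 0.34, limma adjusted p = 0.301) and Stat2 (0.60, SE 0.34, limma adjusted p = 0.350). The 10 tested adaptors and kinases at the receptors had a median of 0.35, with the smallest p-values for Pik3cd (0.52, SE 0.24, limma adjusted p = 0.266) and Lyn (0.42, SE 0.23, limma adjusted p = 0.331). The 4 tested cytokine genes had a median of 0.44, with the smallest p-values for Flt3l (0.53, SE 0.26, limma adjusted p = 0.2997) and Il15 (0.62, SE 0.32, limma adjusted p = 0.306).

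**Figure D4:**
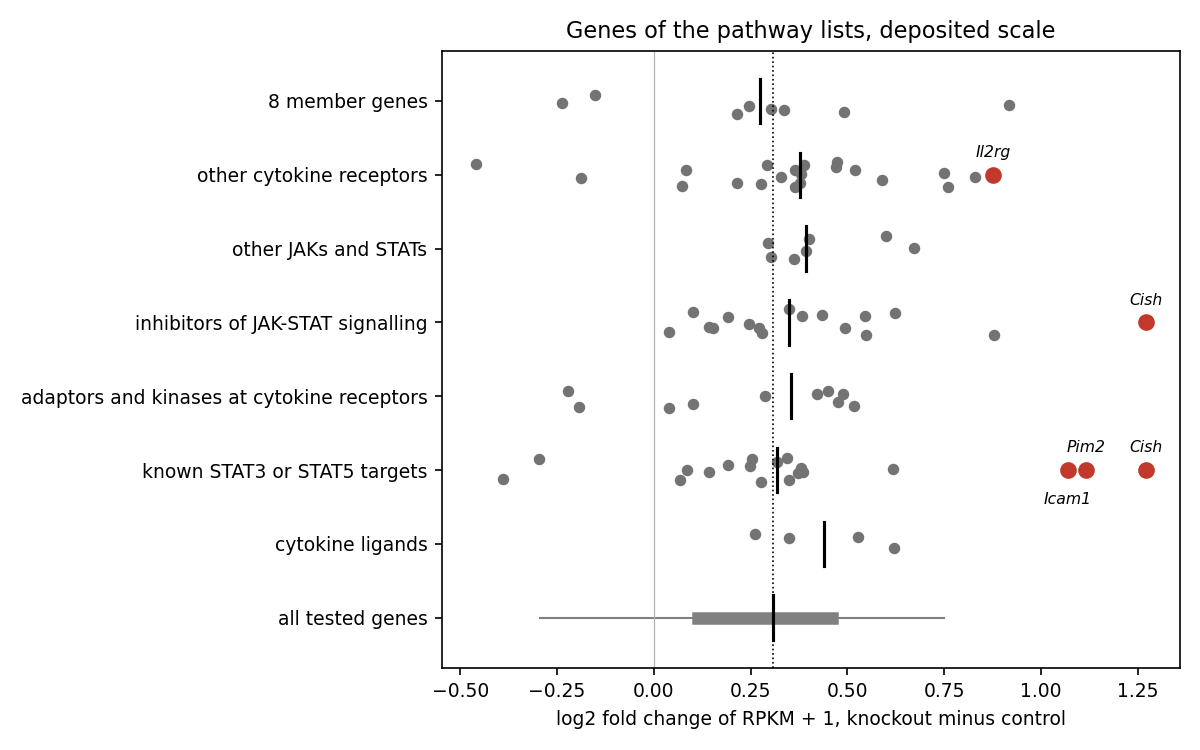
Log2 fold change of RPKM + 1, knockout minus control, as deposited, for the 8 genes and for the tested genes of each pathway list, with called genes in red and named, list medians as black bars, and in the bottom row the 5th to 95th percentile (thin line), the quartiles (thick line) and the median of all tested genes. The called genes Cish, Pim2, Icam1 and Il2rg lie between 0.88 and 1.27, and Socs2, at 0.92 and not called, lies among them.

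The 4 calls depended on the scale and on the fit made on it. After rescaling, the log2 fold changes were 0.95 for Cish, 0.76 for Pim2, 0.74 for Icam1 and 0.52 for Il2rg. Their limma adjusted p-values lay between 0.125 and 0.344, which ended all 4 calls. The fit had 23480 total degrees of freedom as deposited and 5.68 after rescaling, so the same ratio of change to SE gives a larger p. The SE fell from 0.31 to 0.13 for Icam1 and from 0.24 to 0.13 for Il2rg. It went from 0.33 to 0.32 for Cish and rose from 0.25 to 0.34 for Pim2. What part the degrees of freedom had in the lost calls was not tested. After rescaling the groups did not overlap for these 4, a state shared in the higher direction by 26.7% of all genes. For Pim2 the gap was narrow, with knockout replicate 1 at 16.6 RPKM and control replicate 2 at 16.3 RPKM. Rescaled limma called 0 genes of the whole table in either direction, where an unadjusted p under 0.05 was reached by 917 genes in the higher and 910 in the lower direction. On recovered reads voom called 0.273% of all genes higher and 0.0852% lower, none of these 4 among them. All 4 calls were also lost without control replicate 1, control replicate 2 or knockout replicate 2.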

How the data were processed

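RNA was measured in 4 libraries. The unit of the deposited table was identified here from the values as RPKM: value times the longest GENCODE mouse M21 transcript length was a whole number of reads, within 0.1, for 99.4% of values in each library, and those reads were recovered. A gene without reads is deposited as 0.001 RPKM, and the lowest maximum over libraries was 1.0063 RPKM. Per the submitters' processing notes the genome build was mm10; the aligner and counter: not given in the sources used here. Symbols were found for 12384 gene IDs.

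limma 3.58.1 (R 4.3.3, mean-variance trend) was fitted to log2(RPKM + 1) with genotype as sole term and Benjamini-Hochberg adjustment over 11742 genes. Fold changes are knockout minus control on that scale and understate changes of low genes. In this fit the prior degrees of freedom were infinite, so the trend stood in for the spread of every gene. This makes p-values too small for genes with distant replicates and too large for genes with close ones. The spread as deposited also holds the shift between the knockout libraries. The median SE of all genes was 0.29 as deposited and 0.14 after rescaling, where the prior degrees of freedom were 3.68. The code was tested on simulated data.

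The members and lists were chosen with earlier results of these data known, and 1 gene of the lists is not reported here. Named are all members, called pathway genes, the 2 smallest p-values of a list with none, and the 3 nearest patterns. Figures used matplotlib 3.10.9.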

Additional observations from a re-analysis of the deposited data

How the results depend on the processing

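The 8 genes kept their sign and stayed uncalled with a pseudocount of 0.1, without a filter on low values, with robust empirical Bayes and with a replicate block. Rescaling turned signs: Csf2rb to -0.14 (TMM-type), -0.14 (median-centred), -0.084 (quantile normalization) and -0.14 (voom on recovered reads), Jak2 to -0.0024, -0.11 and -0.079 (not with voom), Stat3 to -0.025, -0.021 and -0.030 (not with quantile normalization), and Stat5b to -0.030, -0.055, -0.052 and -0.034. Csf3r, Csf2ra, Stat5a and Socs2 kept their sign under all 4, with Csf3r down to -0.61 and Socs2 between 0.56 and 0.73. The cause of the shift between libraries was not tested. Over every alternative run, limma adjusted p-values spanned 0.140 to 0.957 for Csf3r, 0.381 to 0.957 for Csf2ra, 0.0675 to 0.957 for Csf2rb, 0.0551 to 0.996 for Jak2, 0.01998 to 0.957 for Stat3, 0.0138 to 0.957 for Stat5a, 0.0257 to 0.957 for Stat5b and 0.0145 to 0.957 for Socs2. For the called genes they spanned 0.00183 to 0.932 (Cish), 6.75e-04 to 0.932 (Pim2), 0.0104 to 0.957 (Icam1) and 0.0111 to 0.957 (Il2rg).

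Leaving out 1 library at a time, with 1 residual degree of freedom and the lone library assumed to vary like the other group, gave log2 fold changes from -0.35 to -0.12 for Csf3r, -0.59 to 0.29 for Csf2ra, 0.071 to 0.36 for Csf2rb, -0.0020 to 0.49 for Jak2, 0.075 to 0.60 for Stat3, 0.16 to 0.82 for Stat5a, 0.035 to 0.57 for Stat5b and 0.59 to 1.24 for Socs2, and between 0 and 4 of the 8 called higher. Of the other pathway genes 0 to 47 were called higher and 0 to 1 lower, and of all genes 27 to 6381 higher and 5 to 526 lower, against 4, 0, 391 and 101 with all libraries.

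TMM-type rescaling, median centring and quantile normalization called 0 of all genes and 0 pathway genes higher, and 0 of all genes lower, while voom called 32 and 10 of all genes and 0 pathway genes. With a replicate block, 175 genes were higher and 64 lower, among them 1 pathway gene, Pim2. The replicate numbers were not taken as pairs: the deviations of same-numbered libraries correlated at 0.067, over 2 pairs. The counting error of the 8 genes was at most 5.38% in any library.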
